A study of Mus musculus with 14 samples.

Results

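The mouse mitochondrial genome is a small circular DNA that encodes 37 genes, named with the prefix mt-, and all 37 were described here in dormant embryonic stem (ES) cells. They were chosen by that name prefix from the 54446 gene identifiers in the deposited files, and they comprise 13 protein-coding genes, 2 rRNA genes and 22 tRNA genes. The 14 RNA-seq libraries came from mouse E14 ES cells in 7 groups of 2 biological replicates. Wild-type (WT) cells were untreated (0 h) or were cultured for 24 h, 72 h or 144 h with INK128, an inhibitor of the mTOR kinase that holds ES cells in a paused, diapause-like state. Tet1/2 double-knockout (DKO) cells, an E14 line made with Cas9 and guide pairs that delete most of Tet1 and Tet2, the genes of 2 enzymes that start active DNA demethylation, were collected at 0 h, 24 h and 72 h only. The comparison of times asks what happens to mitochondrial transcripts as cells enter dormancy, and that of genotypes whether the knockout line follows the same course.

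Both strands of mitochondrial DNA are transcribed as long precursors by the dedicated polymerase POLRMT with TFAM and TFB2M. The tRNAs lie between the other genes, and cutting them out releases the mRNAs and rRNAs. The proteins are core subunits of the respiratory chain and ATP synthase: mt-Nd1, mt-Nd2, mt-Nd3, mt-Nd4, mt-Nd4l, mt-Nd5 and mt-Nd6 belong to complex I, mt-Cytb to complex III, mt-Co1, mt-Co2 and mt-Co3 to complex IV, and mt-Atp6 and mt-Atp8 to complex V. The mitochondrial ribosome that translates them contains the 12S rRNA mt-Rnr1 and the 16S rRNA mt-Rnr2. In the annotation, 28 of the genes lie on the plus strand of chrM (here heavy-strand genes) and 9 on the minus strand (light-strand genes), of which mt-Nd6 is the only protein-coding gene and the other 8 encode tRNAs.

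Sequences are shown for the genes on which the results turn, from the GENCODE transcripts on mm10, each written from 5′ to 3′ in the sense of its own gene. mt-Nd5 and mt-Nd6 run toward each other and share 14 bases on opposite strands, given in capitals in their 3′ ends at chrM:13526-13565 (plus strand) and chrM:13552-13591 (minus strand). mt-Te, the glutamic acid tRNA at chrM:14071-14139 (minus strand), lies directly before mt-Nd6 on the light strand. mt-Ti at chrM:3706-3774 (plus strand), mt-Tq at chrM:3772-3842 (minus strand) and mt-Tm at chrM:3845-3913 (plus strand) are the isoleucine, glutamine and methionine tRNAs that separate mt-Nd1 from mt-Nd2, and the capitals in the former pair mark the 3 bases they share on opposite strands.
mt-Nd5 3′ end: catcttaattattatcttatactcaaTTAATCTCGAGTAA
mt-Nd6 3′ end: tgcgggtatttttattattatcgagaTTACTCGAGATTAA
mt-Te: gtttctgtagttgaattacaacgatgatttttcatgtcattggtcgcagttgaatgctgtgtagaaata
mt-Ti: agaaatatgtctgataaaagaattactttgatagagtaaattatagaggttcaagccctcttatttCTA
mt-Tq: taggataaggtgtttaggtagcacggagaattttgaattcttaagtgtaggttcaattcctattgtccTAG
mt-Tm: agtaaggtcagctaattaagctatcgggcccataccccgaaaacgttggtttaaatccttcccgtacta

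Levels are given as TPM, a gene's read density per length as a part of the whole library, which sums to the same total in each library and is therefore blind to a change in total RNA. Each library's TPM was therefore also multiplied by a factor, the ratio of the study's ERCC spike-in normalized table to the deposited TPM over the genes of the part of that table used here (1.43 to 2.11 in WT libraries up to 72 h, at most 1.07 at 144 h, and 1.36 to 2.81 in DKO libraries), giving spike-in normalized TPM, in which a lower value at equal TPM stands for less RNA relative to the spike-in RNA. The study took RNA from a fixed number of cells and made each library from a fixed mass of it. At which step the spike-in RNA was added is not stated. Every value and call on this scale rests on these factors, which were not checked against spike-in reads. A gene was called lower or higher where limma on log2(TPM + 1) over 18232 genes gave a Benjamini-Hochberg adjusted p of at most 0.05, and log2 differences on this scale understate changes of genes near 0. Over all genes tested, the median log2 difference of WT cells from untreated ones was −0.33 after 24 h, −0.33 after 72 h and −0.83 after 144 h on spike-in normalized TPM and −0.01, 0.04 and 0.05 on plain TPM, and the 2 scales are given side by side for that reason. In bulk RNA, fewer mitochondria, less mitochondrial DNA and less RNA from each copy cannot be told apart. Of the targeted genes, Tet2 had 15.9 to 22.2 TPM in the libraries labelled DKO against 96.0 to 143 in WT, whereas Tet1 had 147 to 248 against 191 to 349, and gene-level TPM does not separate the exons between the guides from the rest. The 5 ES cell markers (Pou5f1, Sox2, Nanog, Esrrb and Zfp42) summed to 2016 to 2629 TPM. Nanog had 322 and 344 TPM in untreated WT cells against 154 and 214 after 72 h. Sox2 (231 and 248 against 308 and 308) and Esrrb (262 and 209 against 286 and 284) were higher after 72 h. Pou5f1 (988 and 988 against 1027 and 889) and Zfp42 (579 and 560 against 605 and 555) lay on both sides of the untreated pair. The primitive endoderm markers Gata4, Gata6 and Sox17 moved with time in WT cells, with a sum of 5.16 and 12.3 TPM without inhibitor and 42.1 and 71.7 after 24 h, above every other WT library, and reached 28.8 in DKO libraries (after 24 h, replicate 1). Neural (Sox1 and Pax6, sum up to 9.86 TPM), mesendoderm (T and Mixl1, up to 2.42), trophectoderm (Cdx2 and Elf5, up to 1.18) and fibroblast markers (Col1a1 and Col1a2, up to 0.603) were low, and the part of other cell types in the results was not tested.

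The 13 mitochondrial mRNAs together took 2.73% to 4.83% of all TPM in every library. The untreated WT pair had summed shares of 3.30% and 4.02%, and treated pairs 2.73% and 3.46% (24 h), 3.31% and 3.56% (72 h) and 3.03% and 4.11% (144 h). The untreated DKO pair had 4.01% and 4.39%, and treated pairs 3.66% and 2.83% (24 h) and 4.23% and 4.83% (72 h). The WT groups overlapped at all 4 times, and the DKO libraries were lower than at 0 h only at 24 h. mt-Co1, the catalytic core of cytochrome c oxidase, had the highest level per length, with a mean over the 14 libraries of 10253 ± 1246 TPM (SD). mt-Nd1 (3910 TPM), mt-Cytb (3667 TPM) and mt-Co2 (3658 TPM) followed, then mt-Co3 (3223 TPM) and mt-Atp6 (3039 TPM). mt-Nd4, mt-Nd5, mt-Atp8, mt-Nd4l and mt-Nd2 lay between 1215 and 1920 TPM, and mt-Nd3 (567 TPM) and mt-Nd6 (547 TPM) were lowest.

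This order depends on how reads shared with nuclear copies were divided. A stretch of mitochondrial sequence lies in the nuclear genome at chr1:24611535-24616197 (mm10), where 7 annotated gene models match mitochondrial mRNAs. The 5 of them that cover nearly a whole gene (copies of mt-Co2, mt-Atp6, mt-Co3, mt-Nd3 and mt-Nd4l) had at least the TPM of their mitochondrial counterpart and at most 1.05 times as much in every library, and the strongest model outside chromosome 1 reached 113 TPM. Adding the copies raised mt-Co2 to 7352 TPM, mt-Co3 to 6454 TPM and mt-Atp6 to 6159 TPM, above mt-Nd1, so levels of these genes per length are uncertain by about 2.0 times. No model on chromosome 1 matches mt-Nd1, mt-Nd2, mt-Nd5, mt-Nd6 or mt-Cytb. mt-Atp8 has no model of its own there, but the 43 bases it shares with mt-Atp6 are in the copy of that gene, and the rest of it was not compared with the stretch. With the copies added, the number of mRNAs called was the same as without them in each of the 11 comparisons. The near-full copies were a nearly constant multiple of their gene in every library, so this number could hardly change. It does not test how the shared reads were divided. The first bases of mt-Nd3 (chrM:9459-9481, plus strand) and of its copy Gm28438 (chr1:24613097-24613119, minus strand) show how little separates them, since they differ only by T3C, counted from 1 at the start of mt-Nd3 and shown in capitals.
mt-Nd3: atTaacctgtacactgttatctt
Gm28438: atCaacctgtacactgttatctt

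On spike-in normalized TPM the sum of the 13 mitochondrial mRNAs was lower than at 0 h at every time of mTOR inhibition in WT cells. It was 69602 and 84837 TPM in the untreated pair, 39146 and 64145 after 24 h, 54629 and 53065 after 72 h, and 32427 and 41057 after 144 h. All treated WT libraries were below both 0 h libraries, and the group means were 0.669, 0.697 and 0.476 times the untreated mean in order of time. The spike-in factors were 2.11 in both 0 h libraries and 1.0 to 1.85 in the treated ones. A gene of equal TPM in all of them would therefore separate in the same way, and the plain sums overlapped at every time. Of the 13 mRNAs, 4 were called lower at 24 h (mt-Nd1, mt-Nd2, mt-Nd3 and mt-Nd6), against 8.73% of all genes tested. The WT 24 h pair is also the one with the highest primitive endoderm markers, given above. At 72 h only mt-Nd6 was called, a share near the 7.6% of all genes. At 144 h 10 of 13 were called lower, all but mt-Atp8, mt-Atp6 and mt-Co3, against 50.5% of all genes. The median log2 difference over the 13 was −0.58, −0.53 and −1.08 at the 3 times, and all 13 were below 0 at each. These counts rest on few libraries: without WT 24 h replicate 1 no mRNA was called at 24 h, and 1 was without WT 0 h replicate 2 and 2 without WT 0 h replicate 1. At 72 h none was called without WT 0 h replicate 2 or WT 72 h replicate 2, and 2 were without either DKO 24 h library. At 144 h 3 remained past the threshold without WT 0 h replicate 2 or WT 144 h replicate 1, and 6 without WT 144 h replicate 2.

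**Figure D1:**
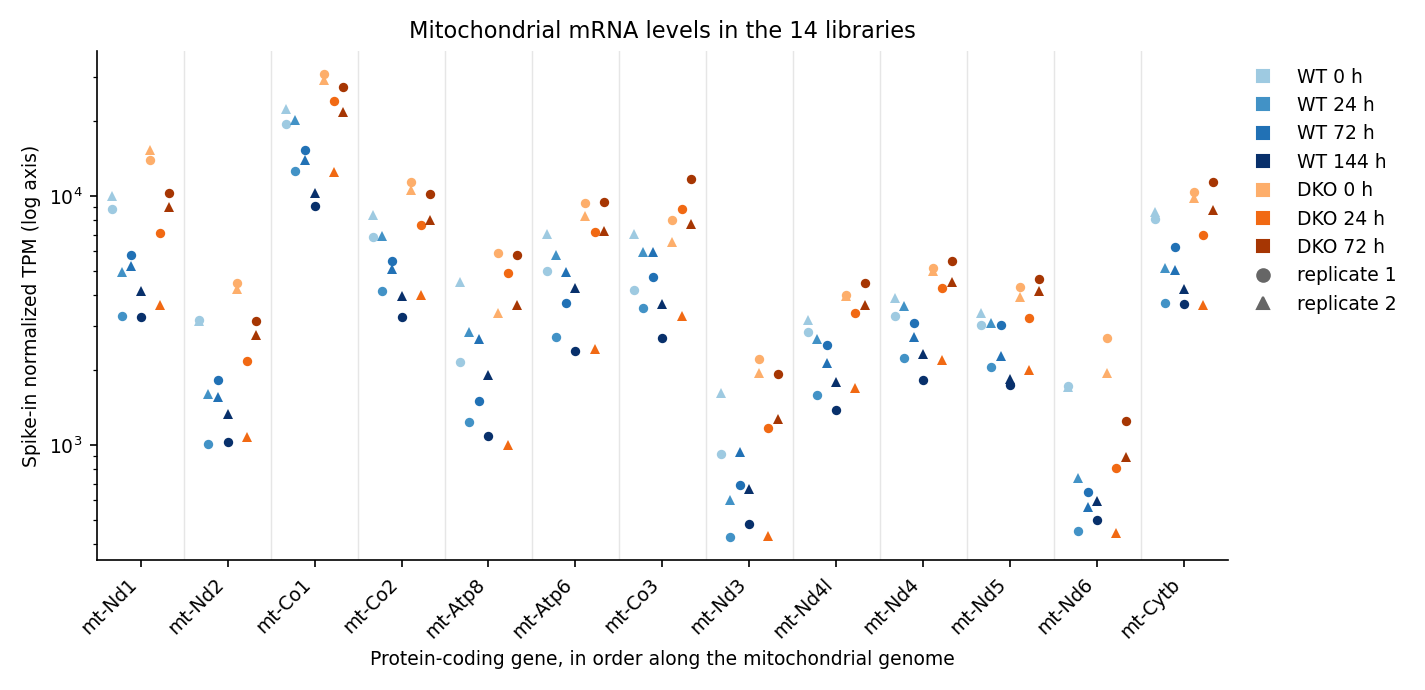
Spike-in normalized TPM (log axis) of each of the 13 mitochondrial mRNAs in the 14 libraries, coloured by group, with circles for replicate 1 and triangles for replicate 2 and genes in their order along chrM. mt-Nd6 and mt-Nd2 show a gap between untreated and treated WT cells, and the DKO libraries after 24 h lie far apart (summed level 81716 and 38389.9).

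The study states that the time points of a biological replicate were processed in parallel, and a fit that gives each replicate series of a genotype its own level (the replicate block) called more genes. With it, 5 mRNAs were called lower at 24 h (mt-Cytb was added; 25.7% of all genes), 3 at 72 h (mt-Nd1, mt-Nd2 and mt-Nd6; 25.4%) and all 13 at 144 h (66.3%). On plain TPM, where the loss of total RNA is not seen, 4 were called lower at 24 h (mt-Nd1, mt-Nd2, mt-Nd6 and mt-Cytb; 14.1% of all genes), and only mt-Nd6 at 72 h (11.4%) and at 144 h (11.7%). The plain sum at 144 h was 0.975 times that at 0 h, with 5 of the 13 log2 differences above 0 (mt-Nd4l, mt-Nd4, mt-Nd5, mt-Atp6 and mt-Co3), and none of the 13 was called higher, against 15.6% of all genes. Between 72 h and 144 h, limma called 0 of 13 mRNAs, with 0 at an unadjusted p under 0.05, and 0.389% of all genes were called lower. Their median log2 difference was −0.53 beside −0.50 over all genes. The count was also 0 with the block, which called 18.5% of all genes lower.

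DKO cells had lower values after 24 h and values nearer to their own untreated level after 72 h. The spike-in normalized sum was 112909 and 104280.3 TPM in the untreated pair, 81716 and 38389.9 after 24 h, and 107215 and 83420.4 after 72 h. The 24 h libraries were both below the untreated ones but far apart from each other, their spike-in factors being 2.24 and 1.36, and replicate 1 at 72 h lay between the untreated libraries. Of the 13 mRNAs 6 were called lower at 24 h (mt-Nd1, mt-Nd2, mt-Nd3, mt-Nd6, mt-Co2 and mt-Cytb), against 18.7% of all genes, and the median over the 13 was −1.0 beside −0.49 over all genes. With the block 12 were called, all but mt-Co3 (38.1% of all genes). The number was 13 without DKO 24 h replicate 1, 1 without DKO 24 h replicate 2 and 3 without DKO 0 h replicate 1. At 72 h limma called 0 of 13, against 2.95% of all genes. At an unadjusted p under 0.05 there was 1, beside 3588 of all 18232 genes. With the block limma called mt-Nd6 (13.2% of all genes). mt-Nd6 was also called at 72 h when any 1 of the 4 24 h libraries of either genotype was left out. On plain TPM 4 mRNAs were called lower at 24 h (mt-Nd1, mt-Nd2, mt-Nd3 and mt-Nd6; 13.3% of all genes) and mt-Nd6 at 72 h (9.06%).

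**Figure D2:**
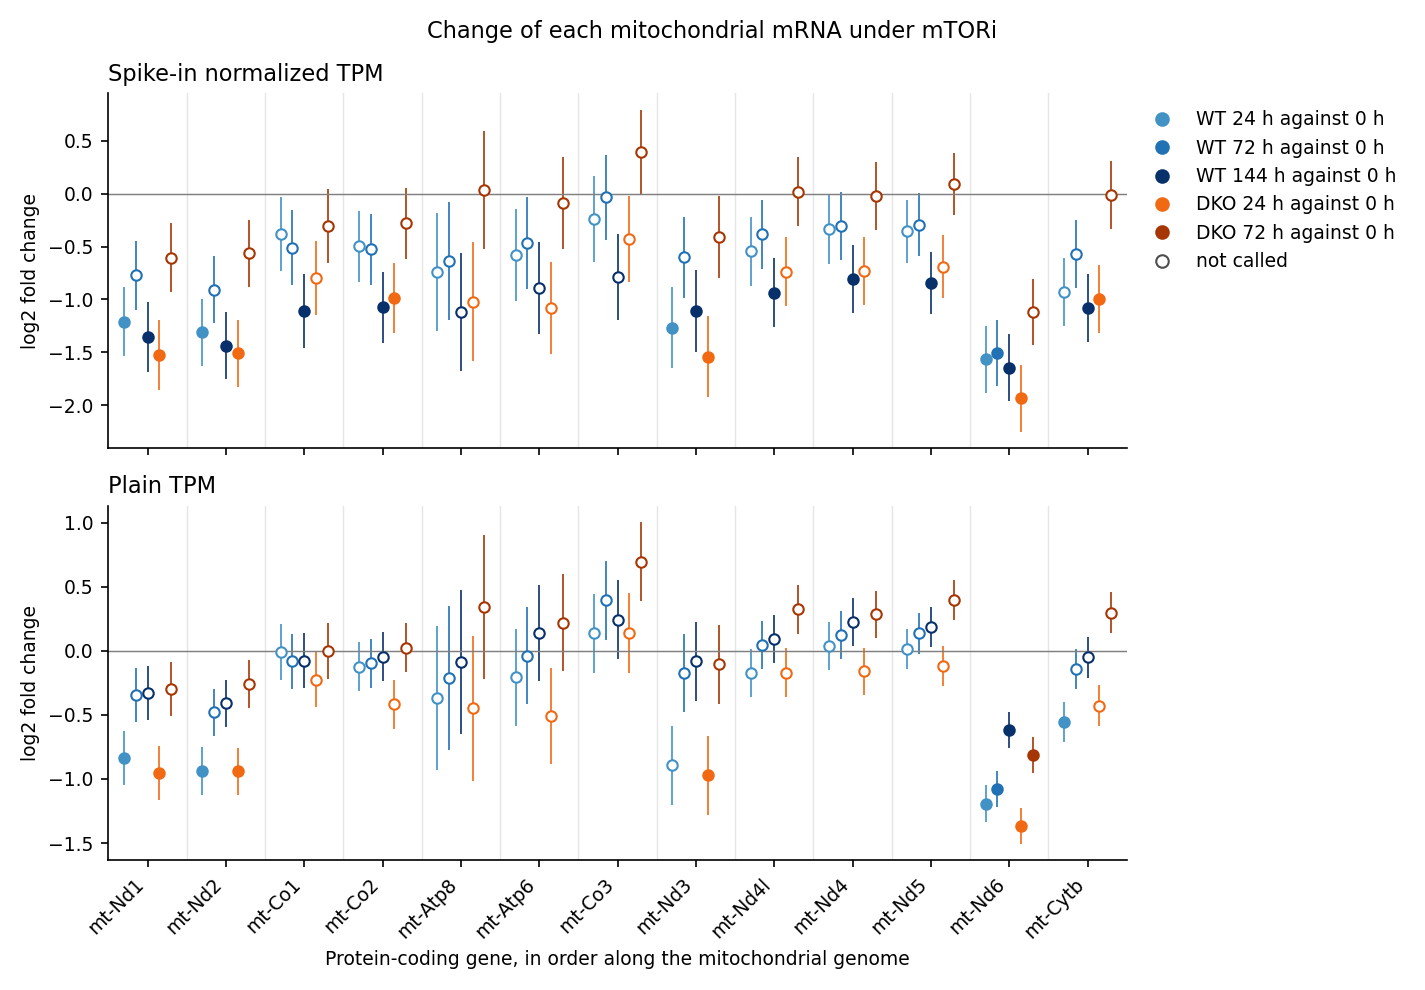
Log2 difference from 0 h of the same genotype for each of the 13 mRNAs, on spike-in normalized TPM above and plain TPM below, with the standard error from limma as bars and filled points where the gene was called. On spike-in normalized TPM mt-Nd6 had the lowest value in each comparison shown, from −1.12 in DKO cells at 72 h to −1.94 in DKO cells at 24 h.

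mt-Nd6, the complex I subunit on the light strand, had the lowest log2 difference of the 13 mRNAs in all 5 comparisons with 0 h. In WT cells its spike-in normalized level was 1725 and 1705 TPM without inhibitor, 453 and 740 after 24 h, 648 and 561 after 72 h, and 501 and 598 after 144 h. The DKO pairs had 2702 and 1949 TPM without inhibitor, 807 and 444 after 24 h, and 1251 and 892 after 72 h. Every treated library was below every 0 h library, in both genotypes. The log2 difference in WT cells was −1.57 ± 0.32 (SE; limma adjusted p = 0.00427) at 24 h, −1.51 ± 0.32 (adjusted p = 0.00794) at 72 h and −1.65 ± 0.32 (adjusted p = 0.0007) at 144 h. For DKO cells limma gave −1.94 ± 0.32 (adjusted p = 0.000648) at 24 h and −1.12 ± 0.32 (adjusted p = 0.0524) at 72 h, the latter called with the block (adjusted p = 0.00328). The WT calls held in 13 of 14 fits that left out 1 library at 24 h (all but that without WT 24 h replicate 1), in 12 of 14 at 72 h (all but those without WT 0 h replicate 2 or WT 72 h replicate 2) and in 14 of 14 at 144 h, and the DKO call at 24 h in 14 of 14. On plain TPM the WT level was 817 and 807 without inhibitor, then 316 and 399, then 392 and 377, then 468 and 598, again without overlap with the untreated pair.

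Because every mitochondrial mRNA shares the spike-in factor of its library, the makeup of the 13-mRNA pool does not depend on it. mt-Nd6 was 2.48% and 2.01% of the pool in untreated WT cells, 1.16% and 1.15% after 24 h, 1.19% and 1.06% after 72 h, and 1.54% and 1.46% after 144 h. Among DKO libraries it was 2.39% and 1.87% without inhibitor, 0.988% and 1.16% after 24 h, and 1.17% and 1.07% after 72 h. The 4 untreated libraries (1.87% to 2.48%) and the 10 treated ones (0.988% to 1.54%) did not overlap. Beside mt-Nd5, the heavy-strand gene whose 3′ end it overlaps, mt-Nd6 had 0.496 to 0.625 times the TPM in untreated libraries and 0.214 to 0.324 times in treated ones. With every library scaled to its summed mitochondrial mRNA, an alternative chosen after seeing the data, mt-Nd6 was called lower in WT cells at 24 h (−0.95 ± 0.24, adjusted p = 0.00707; 3.4% of all genes called lower) and 72 h (−0.99, adjusted p = 0.0111; 2.75%), but at 144 h only with the block (−0.57, adjusted p = 0.0802 without and 0.0269 with it; 4.23%). It was called in DKO cells at 24 h (−0.98, adjusted p = 0.0069; 1.71%) and 72 h (−0.92, adjusted p = 0.0222; 2.46%). The study lists no strand option for StringTie, and whether strand was used when reads were assigned to genes is not given in the sources used here. Without strand, reads from mt-Nd6 and from heavy-strand RNA opposite it cannot be told apart.

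mt-Nd1 and mt-Nd2, complex I genes at the 5′ side of the heavy-strand set, also made up less of the pool in treated cells. mt-Nd1 was 12.7% and 11.7% of the pool in untreated WT cells, 8.46% and 7.75% after 24 h, 10.6% and 9.85% after 72 h, and 10.0% and 10.1% after 144 h. DKO libraries gave 12.4% and 14.8%, then 8.74% and 9.49%, then 9.55% and 10.9%. All 10 treated libraries were below the 4 untreated ones, and the WT 24 h pair was lowest. mt-Nd2 was 3.72% to 4.57% of the pool in untreated libraries and 2.51% to 3.34% in treated ones, again without overlap. On spike-in normalized TPM mt-Nd1 had 8869 and 9964 TPM in WT cells at 0 h and 3314 and 4973 at 24 h, a log2 difference of −1.21 ± 0.33 (limma adjusted p = 0.0232). For mt-Nd2 the values were 3183 and 3153 TPM and 1011 and 1611, a difference of −1.31 ± 0.32 (limma adjusted p = 0.013). mt-Nd3 went from 923 and 1622 to 427 and 603 TPM, a difference of −1.27 ± 0.39 (adjusted p = 0.0412), on plain TPM −0.89 (adjusted p = 0.0506), and its value is subject to the chromosome 1 copy. In DKO cells at 24 h the 3 genes differed from 0 h by −1.52, −1.51 and −1.54, all called. Without WT 24 h replicate 1 or WT 0 h replicate 2 none of the 3 WT calls passed the threshold. The WT calls of mt-Nd1 and mt-Nd2 were also lost without WT 0 h replicate 1, and that of mt-Nd3 without either WT 72 h library. Without DKO 24 h replicate 2 none of the 3 DKO calls passed, and that of mt-Nd3 was also lost without DKO 0 h replicate 1.

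**Figure D3:**
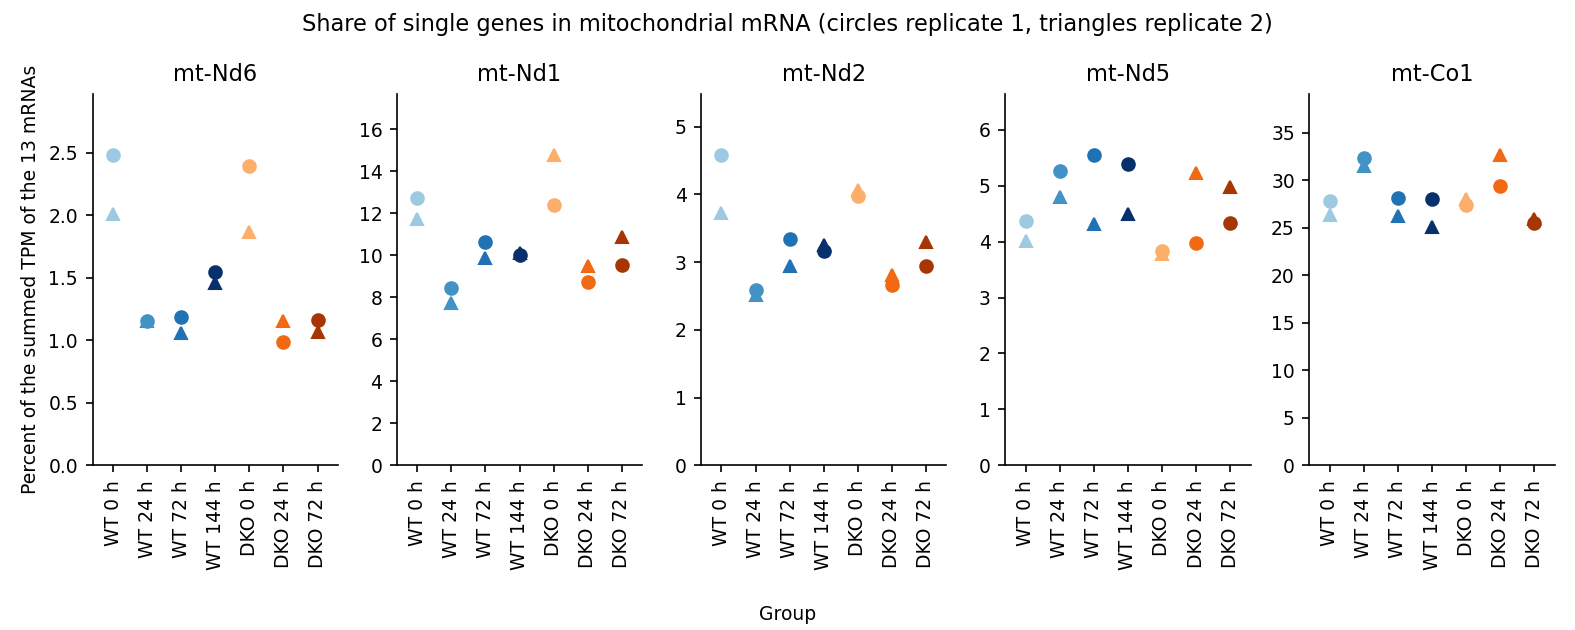
Share of 5 mRNAs in the summed TPM of the 13 mitochondrial mRNAs (percent, axes from 0) in each library, circles for replicate 1 and triangles for replicate 2. mt-Nd6 and mt-Nd1 were lower in every treated library than in every untreated one, while mt-Nd5 (3.77% to 5.54%) and mt-Co1 (25.1% to 32.6%) had no such gap.

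The pool shares of some mRNAs went the other way or showed no such gap. mt-Co1 was 26.4% to 27.9% of the pool in WT cells at 0 h and 31.5% and 32.3% at 24 h, but 25.1% to 28.1% at 72 h and 144 h. mt-Nd4 was 4.56% to 4.79% in untreated libraries and 5.13% to 5.71% in treated ones, and mt-Co3, whose value is subject to the chromosome 1 copy, was 6.03% to 8.27% and 8.29% to 11.2%, both higher in treated libraries without overlap. For mt-Co3 the groups nearly met, at 8.27% in WT 0 h replicate 2 and 8.29% in WT 144 h replicate 1. Shares have a fixed total, so lower shares of some genes raise those of others. mt-Nd4 itself was called lower at WT 144 h on spike-in normalized TPM. mt-Atp8, a small subunit of complex V whose last 43 bases are also the start of mt-Atp6, had the widest spread between replicates, with 2148 and 4536 spike-in normalized TPM at 0 h in WT cells and 1086 and 1907 at 144 h. Its log2 difference at 144 h was −1.12 ± 0.56 (limma adjusted p = 0.0993), past the threshold with the block (adjusted p = 0.00317). WT replicate 2 was the higher of the pair for mt-Atp8 at all 4 times.

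Between genotypes, limma called none of the 13 mRNAs at any time. DKO cells at 0 h were above WT cells for all 13, with a median log2 difference of 0.50 beside 0.29 over all genes, and 0 passed an unadjusted p under 0.05 (0.0274% of all genes called higher). At 24 h the median was 0.20 beside 0.10, again with 0 at an unadjusted p under 0.05 (0.011% called higher). At 72 h it was 0.81 beside 0.49, with 0.302% of all genes called higher. Of the 13, 12 were at an unadjusted p under 0.05, as were 4193 of all 18232 genes. On plain TPM none was called either, against 3.17% of all genes at 72 h. The response to mTOR inhibition did not pass the test of a difference between genotypes for any of the 13 at 24 h (median DKO minus WT −0.31, 0.00548% of all genes called in either direction) or at 72 h (median 0.38, 0.0%), with 0 at an unadjusted p under 0.05 at both times. For mt-Nd6 these differences in response were −0.37 ± 0.45 and 0.39 ± 0.45 on the log2 scale, so errors of this size leave room for unlike responses. The block within each genotype, as fitted here, cannot test DKO against WT at a given time, and a block across all libraries called none of the 13 between genotypes.

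The summed tRNA level in treated cells was a lower share of its untreated level than that of the mRNAs. Summed spike-in normalized TPM of the 22 tRNAs was 0.563, 0.541 and 0.309 times the untreated WT mean in order of time, and 0.5 and 0.696 times the untreated DKO mean. On plain TPM the ratios were 0.717, 0.734 and 0.633 in WT and 0.692 and 0.841 in DKO cells. The tRNA sum was 0.0572 to 0.105 times the mRNA sum. Mature tRNAs are shorter than the fragments of such libraries, so a tRNA value can include reads of longer precursors that span it. mt-Ts1, a serine tRNA that overlaps mt-Co1 by 3 bases on the opposite strand, had the highest level (1002 to 2247 TPM), followed by mt-Tl1, a leucine tRNA (378 to 1067 TPM). In untreated WT cells these 2 had means of 1680 and 627 plain TPM out of a summed 3301. The summed level is therefore mostly that of mt-Ts1 and mt-Tl1. mt-Tf, the phenylalanine tRNA, was at most 0.73 TPM and was listed at 0 in 9 libraries, and mt-Tv, the valine tRNA, was listed at 0 in 5. mt-Tf did not reach the mean of 1 TPM, so 21 of 22 tRNAs were tested.

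Of those 21, 5 were called lower in WT cells at 24 h (mt-Ti, mt-Tq, mt-Tm, mt-Tw and mt-Te), 7 at 72 h (these and mt-Tl1 and mt-Tp) and 17 at 144 h, beside the shares of all genes given above. The median log2 difference was −1.06, −1.16 and −1.80. In DKO cells 12 were called lower at 24 h (median −1.40), against 18.7% of all genes. At 72 h limma called 0 (median −0.88), against 2.95% of all genes. At an unadjusted p under 0.05 there were 13, beside 3588 of all 18232 genes. With the block the counts were 15, 16 and 20 in WT and 20 and 14 in DKO cells. The shares of all genes were 25.7%, 25.4% and 66.3% in WT and 38.1% and 13.2% in DKO cells. On plain TPM the counts were 5, 4 and 6 in WT and 7 and 0 in DKO cells. There the shares were 14.1%, 11.4% and 11.7% in WT and 13.3% and 9.06% in DKO cells. The counts on spike-in normalized TPM without the block turn on few libraries. At 24 h in WT cells 1 tRNA (mt-Te) was called without WT 24 h replicate 1, 3 without either WT 0 h library and 9 without either DKO 24 h library. At 72 h 0 were called without WT 72 h replicate 2, 2 without WT 72 h replicate 1, 3 without either WT 0 h library and 16 without either DKO 24 h library, and at 144 h 11 without WT 144 h replicate 1. For DKO cells at 24 h the number was 4 without DKO 24 h replicate 2, 7 without DKO 0 h replicate 1 and 19 without DKO 24 h replicate 1, and at 72 h it was 7 without either DKO 24 h library. Between 72 h and 144 h 0 were called by limma, with 5 at an unadjusted p under 0.05 beside 3482 of all 18232 genes. With the block 4 were called (mt-Tm, mt-Ts1, mt-Th and mt-Ts2), a share near the 18.5% of all genes called lower with it. mt-Tr, the arginine tRNA, was the member with a positive value in WT cells at 24 h, 0.78, and was not called.

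mt-Te, next to mt-Nd6 on the light strand, had the lowest log2 difference of the 21 tRNAs in WT cells after 24 h. Its spike-in normalized level was 93.9 and 59.4 TPM in untreated WT cells, 12.2 and 13.8 after 24 h, 19.0 and 23.3 after 72 h, and 15.1 and 27.3 after 144 h. The DKO pairs had 114 and 107 TPM without inhibitor, 33.2 and 16.8 after 24 h, and 46.3 and 55.5 after 72 h. Each treated library was below each untreated library of both genotypes. The log2 difference was −2.44 ± 0.35 (limma adjusted p = 0.000413) in WT cells at 24 h, −1.78 at 72 h and −1.83 at 144 h, all called. The calls at 24 h and 144 h held in 14 of 14 fits that left out 1 library, and that at 72 h in 11, not without WT 0 h replicate 1 or either WT 72 h library. For DKO cells limma gave −2.17 (adjusted p = 0.000557) at 24 h and −1.11 (adjusted p = 0.0821) at 72 h, the latter called with the block. As for mt-Nd6, reads of mt-Te, mt-Tq, mt-Ts1 and the other light-strand tRNAs cannot be told apart from heavy-strand RNA opposite them if strand was not used in read assignment.

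mt-Ti, mt-Tq and mt-Tm, the cluster between mt-Nd1 and mt-Nd2, were all called lower at each time in WT cells, mt-Tq being the member on the other strand. In WT cells the log2 differences of mt-Ti were −1.89, −1.74 and −2.38 at 24 h, 72 h and 144 h, those of mt-Tq −1.67, −1.56 and −2.27, and those of mt-Tm −1.61, −1.46 and −2.32. The calls at 144 h held in 14 of 14 fits that left out 1 library. Those at 24 h were lost without WT 24 h replicate 1, and for mt-Ti also without WT 0 h replicate 2 and for mt-Tm without WT 0 h replicate 1. Those at 72 h were lost without WT 72 h replicate 2, and for mt-Ti also without WT 72 h replicate 1 or WT 0 h replicate 2 and for the others without WT 0 h replicate 1. mt-Tq had 252 and 204 spike-in normalized TPM in untreated WT cells, 54.2 and 91.8 after 24 h, 82.2 and 70.4 after 72 h, and 36.8 and 58.1 after 144 h. In DKO cells it had 444 and 547 TPM without inhibitor, 175 and 85.0 after 24 h, and 227 and 244 after 72 h. Treated and untreated libraries did not overlap within a genotype, and the DKO libraries at 72 h lay in the range of untreated WT cells. Of all 36 members tested, mt-Tq and mt-Tm were the pair called between genotypes, higher in DKO cells at 72 h by 1.61 ± 0.33 (limma adjusted p = 0.0412) and 1.41 ± 0.30 (adjusted p = 0.0466), beside 0.302% of all genes. Neither passed with a block across all libraries, and each call held in 8 of 14 fits that left out 1 library, all but those without a WT 72 h, WT 144 h or DKO 72 h library. On plain TPM the differences were 1.19 and 1.0, both called, as was mt-Tw at 0.89, beside 3.17% of all genes. At 0 h all 21 tRNAs were above WT in DKO cells and 0 were called by limma, with 13 at an unadjusted p under 0.05, and at 24 h 0 were called, with 4.

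The 2 rRNA genes varied widely between replicates in most groups. An exception was mt-Rnr2 in WT cells at 144 h (6.41 and 9.01 plain TPM), relatively closer than the mRNA mt-Atp8 (1014 and 1907). mt-Rnr1 had 73.6 and 188 plain TPM in untreated WT cells, 2.25 and 5.46 after 24 h, 58.4 and 349 after 72 h, and 9.34 and 4.64 after 144 h. In DKO cells it had 45.7 and 4.66 TPM without inhibitor, 313 and 3.30 after 24 h, and 90.3 and 9.41 after 72 h. The WT pairs after 24 h and 144 h were below those without inhibitor and after 72 h, whereas in DKO cells replicate 1 was far above replicate 2 at each time. mt-Rnr2 followed it at 0.417 to 3.34 times its TPM. The libraries were depleted of rRNA before sequencing, and these levels stand below those of most mRNAs. On spike-in normalized TPM mt-Rnr1 was called lower in WT cells at 24 h (−5.18, limma adjusted p = 0.0296) and 144 h (−4.98, adjusted p = 0.01), the former not without WT 0 h replicate 2 or WT 24 h replicate 1, and mt-Rnr2 at 144 h (−4.15, adjusted p = 0.0264), not without WT 0 h replicate 2 or either WT 144 h library. On plain TPM none of these passed (mt-Rnr1 −4.69, adjusted p = 0.0741 at 24 h, and −3.96, adjusted p = 0.129 at 144 h). The response of mt-Rnr1 at 24 h differed between genotypes by 5.83 (adjusted p = 1.0; with the block, 0.00778, where 0.0932% of all genes were called in either direction). The cytosolic rRNA loci left after depletion took 3.44% to 10.2% of TPM, with 3.84% and 5.98% in untreated WT cells, 4.29% and 6.52% after 24 h, 6.26% and 10.2% after 72 h, and 5.78% and 7.20% after 144 h. The DKO pairs had 6.77% and 3.44%, then 10.0% and 5.64%, then 7.47% and 4.61%. The replicate with more cytosolic rRNA also had more mt-Rnr1 in 6 of the 7 groups, all but WT cells at 144 h. The part of depletion in the mt-Rnr1 and mt-Rnr2 values was not tested.

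**Figure D4:**
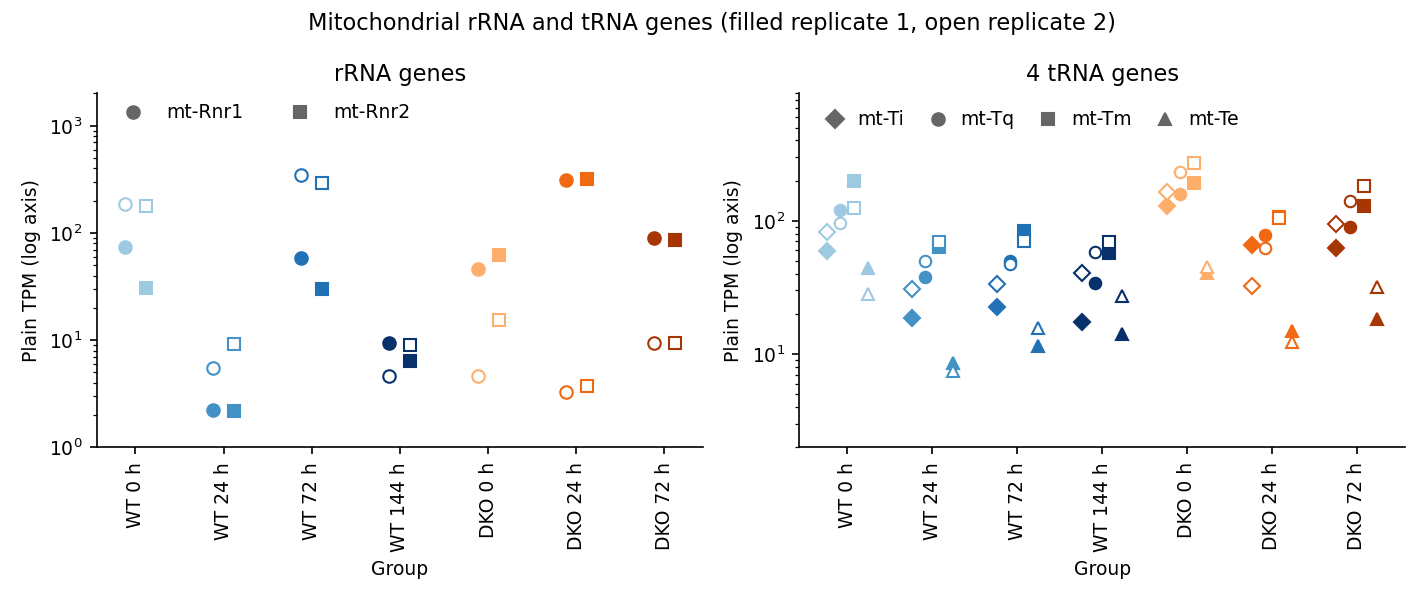
Plain TPM (log axis) of the 2 rRNA genes and of mt-Ti, mt-Tq, mt-Tm and mt-Te by library and group, with filled points for replicate 1 and open points for replicate 2. mt-Rnr1 spanned 2.25 to 349 TPM over the 14 libraries, while mt-Te was lower in every treated library than in the untreated ones of its genotype.

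Respiratory complexes also hold nuclear-encoded subunits, of which 71 for complexes I, III, IV and V were tested. Their summed spike-in normalized TPM was 0.610, 0.600 and 0.413 times the untreated WT mean in order of time, and 0.507 and 0.708 times the untreated DKO mean. In WT cells 29, 17 and 70 of the 71 were called lower at the 3 times, beside 8.73%, 7.6% and 50.5% of all genes, with medians of −0.75, −0.76 and −1.24. In DKO cells 53 and 4 were called, beside 18.7% and 2.95% of all genes, with medians of −0.99 and −0.48. On plain TPM the counts were 35, 25 and 26 in WT cells (14.1%, 11.4% and 11.7% of all genes; medians −0.38, −0.33 and −0.21) and 33 and 17 in DKO cells (13.3% and 9.06%). The spike-in counts turn on single libraries too. At WT 24 h 3 were called without WT 24 h replicate 1, 4 without either WT 0 h library and 11 without WT 24 h replicate 2. At WT 72 h the count ran from 0 without WT 72 h replicate 2 to 45 without either DKO 24 h library, with 3 and 4 without a WT 0 h library, 8 without WT 72 h replicate 1 or a WT 144 h library and 9 without a DKO 0 h library. At DKO 24 h it was 18 without DKO 0 h replicate 1, 22 without DKO 24 h replicate 2 and 28 without DKO 0 h replicate 2. At DKO 72 h it was 0 without either DKO 0 h library or DKO 72 h replicate 2, 2 without any 1 of the WT 0 h, 72 h and 144 h libraries and 11 without either DKO 24 h library. Against the 13 mitochondrial mRNAs, the ratio of mitochondrial to nuclear subunit TPM was 2.37 and 2.95 in untreated WT cells, 2.43 and 3.32 after 24 h, 2.80 and 3.46 after 72 h, and 2.55 and 3.63 after 144 h. DKO libraries gave 2.72 and 2.74, then 3.49 and 2.27, then 3.30 and 3.49. The WT groups overlapped at all times, with replicate 2 above replicate 1 in each pair, and the DKO libraries at 72 h were both above those at 0 h. For complex III, where mt-Cytb is the mitochondrial member, the WT ratio was 2.23 and 2.46 without inhibitor, 2.09 and 2.41 after 24 h, 2.95 and 3.14 after 72 h, and 2.66 and 3.49 after 144 h. The DKO ratio was 2.03 and 2.04 without inhibitor, 2.63 and 1.89 after 24 h, and 3.22 and 3.33 after 72 h. The libraries after 72 h and 144 h were above the untreated ones of their genotype, whereas those after 24 h overlapped with them. In complexes I, IV and V the WT libraries after 72 h and 144 h overlapped with the untreated ones. For DKO cells at 72 h the ratios of complexes IV and V were above the untreated ones. Complex I gave 3.69 and 4.24 there, against 3.83 and 4.01 without inhibitor.

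**Figure D5:**
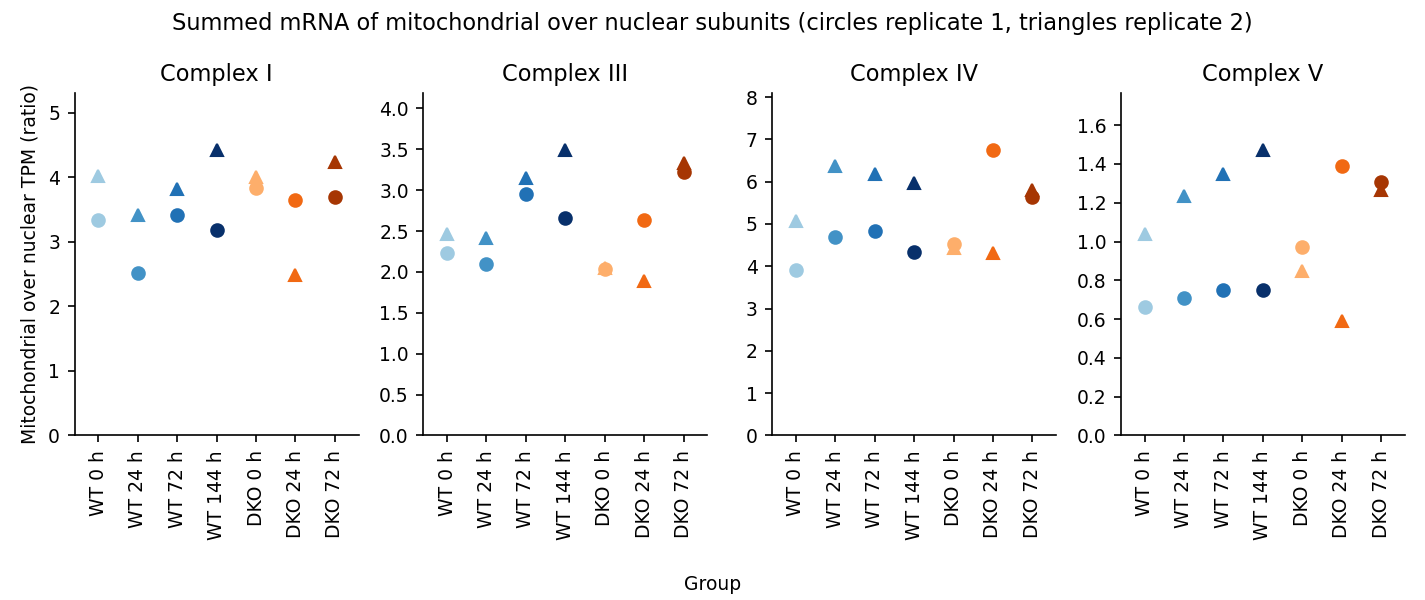
Ratio of summed TPM of mitochondrial to nuclear subunits in complexes I, III, IV and V, per library (axes from 0, circles for replicate 1 and triangles for replicate 2). In complex III the libraries after 72 h (2.95 to 3.33) were above the untreated ones (2.03 to 2.46) in both genotypes, and in complex V replicate 2 of WT cells was the higher at each time.

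A list of 58 nuclear genes that maintain mitochondrial DNA or make, process or degrade mitochondrial RNA was read beside them. In WT cells 4, 1 and 42 of the 57 tested were called lower in order of time on spike-in normalized TPM, beside 8.73%, 7.6% and 50.5% of all genes, and in DKO cells 18 and 0, beside 18.7% and 2.95%. None was called higher at 144 h, and the 3 with the largest falls there were Slirp (−1.76), Ptcd1 (−1.52) and Top1mt (−1.35), which encode an mRNA-stabilizing partner of LRPPRC, an RNA-binding protein and a mitochondrial DNA topoisomerase. On plain TPM 2 were called lower and 9 higher at 144 h, beside 11.7% and 15.6% of all genes, so the latter count is near the background. The spike-in count at WT 24 h was 0 without either WT 0 h library or WT 24 h replicate 1 and 13 without either DKO 24 h library, and that at 72 h was 0 without any 1 of the WT 0 h and 72 h libraries and 7 without either DKO 24 h library. At 144 h it was 10 without WT 144 h replicate 2, 13 without WT 0 h replicate 2, 26 without WT 144 h replicate 1 and 27 without WT 0 h replicate 1. In DKO cells at 24 h it was 1 without DKO 0 h replicate 1 or DKO 24 h replicate 2, 3 without DKO 0 h replicate 2 and 47 without DKO 24 h replicate 1. Slirp had 84.4 and 78.3 spike-in normalized TPM in untreated WT cells, 29.7 and 35.4 after 24 h, 41.4 and 35.2 after 72 h, and 22.7 and 23.9 after 144 h. In DKO cells it had 81.0 and 79.4, then 35.3 and 25.9, then 56.4 and 38.1. The treated and untreated libraries did not overlap, and the log2 differences were −1.30 (limma adjusted p = 0.00709), −1.07 (adjusted p = 0.026) and −1.76 (adjusted p = 0.000219) in WT and −1.38 (adjusted p = 0.00314) and −0.78 (adjusted p = 0.129; with the block 0.0172) in DKO cells. On plain TPM all 5 were called, from −0.92 to −0.47. Its partner Lrpprc differed by −0.18, −0.02 and −0.59 in WT cells, with none called on spike-in normalized TPM (at 144 h adjusted p = 0.0834, with the block 0.0218), and was called higher at 144 h on plain TPM (0.43).

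Among the transcription factors, Polrmt, the RNA polymerase, differed by −0.51, −0.56 and −1.03 in WT cells in order of time, and Tfam, which packages the DNA and helps open its promoters, by −0.76, −0.66 and −1.03, with calls for both at 144 h only. On plain TPM they were −0.03 and −0.02 at 144 h, not called. Tfb2m, the other initiation factor, was called at 144 h (−1.02, plain −0.02 and not called), whereas Tefm, the elongation factor, was −0.52 and not called, and higher on plain TPM (0.47). Of the enzymes that cut or degrade the precursors, Trmt10c (−0.94) and Elac2 (−1.24), which act at the ends of tRNAs, and Pnpt1 (−1.30) and Supv3l1 (−0.94), the subunits of the RNA-degrading complex, were all called lower at 144 h. None of these 4 was called on plain TPM, where they were 0.06, −0.22, −0.28 and 0.07. Elac2 was also called in WT cells (−0.89) and DKO cells (−1.06) at 24 h. Of the replication factors, Ssbp1, the DNA-binding protein, was called at 144 h (−1.08, plain −0.06 and not called), while Polg (−0.61), the DNA polymerase, and Twnk (−0.28), the helicase, were not, and both were called higher on plain TPM (0.39 and 0.72).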

How the data were processed

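RNA was spiked with ERCC RNA, depleted of rRNA and sequenced by the authors, who deposited 1 table of TPM per library, made with cutadapt 2.4, STAR 2.7.3a and StringTie 2.0 on mm10 with GENCODE annotation per the submitters' notes, without spike-in normalization. TPM was summed per gene identifier and multiplied by 1 spike-in factor per library, the median ratio of the study's normalized supplementary table to the deposited TPM over 483 to 540 genes, not checked against spike-in reads. limma 3.58.1 (R 4.3.3, trend) was fitted on log2(TPM + 1) to all 14 libraries in 7 groups, for 18232 of 38890 genes, those averaging 1 TPM or more, in 11 comparisons, with Benjamini-Hochberg adjustment at 0.05. A count test was not used because the files hold no counts, and the sequencing depth, which the files do not give, was not analysed here. The fit was also run on simulated data with known changes, and the outcome is not given here. P-values measure only the spread between the 2 replicates of a group, pooled per gene over the 7 groups, so a library left alone in its group is assumed to vary like the others and leaving out a library of 1 group can end a call in another.

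All genes with the prefix mt- were named, with 13 fixed nuclear genes, the nuclear models of at least 90% identity over 90% of their length (blastn 2.17.0), and up to 3 called rises and 3 called falls of the list of 58 at WT 144 h. Members and lists were chosen with earlier results of these data known, and the members given in every library after their values were seen. The study states that the time points of a biological replicate were processed in parallel. Deviations of same-numbered libraries correlated at over 0.1 in 5 of 6 WT pairs (0.0622 to 0.399) and 3 of 3 DKO pairs (0.222 to 0.341), but were below 0 in 10 of 12 pairs across genotypes, so, as a choice made here, the replicate block was fitted within each genotype. Alternatives were plain TPM, median-centred libraries, TPM rescaled to the non-mitochondrial total, a pseudocount of 0.1, no filter, a block across all libraries, nuclear copies added, each library left out, and, chosen after seeing the data, scaling to the summed mitochondrial mRNA and the block on that scale and on plain TPM. Tables and figures were made with Python 3.11.15, pandas 2.3.3, numpy 2.4.6 and matplotlib 3.10.9.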

Additional observations from a re-analysis of the deposited data

Results flagged for a closer look

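After 72 h of mTOR inhibition mt-Nd5, a core subunit of complex I, lay on opposite sides of the untreated level in the 2 genotypes on spike-in normalized TPM, but not on plain TPM. Both WT libraries (3025 and 2287 spike-in normalized TPM) were below the mean of the untreated pair (3045 and 3406), and the DKO libraries (4645 and 4154) were both above the mean of theirs (4322 and 3930). The response in DKO minus that in WT cells was 0.384 ± 0.42 on the log2 scale (limma adjusted p = 1.0), so the difference did not pass the test. On plain TPM both WT libraries (1831 and 1535) were above the untreated WT mean of 1528, as the DKO libraries (1834 and 2405) were above theirs of 1595, and the difference in response was 0.26 ± 0.22 (limma adjusted p = 0.999).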

How the results depend on the processing

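The counts of mRNAs called lower are given here in the order WT 24 h, 72 h and 144 h, then DKO 24 h and 72 h, and were 4, 1, 10, 6 and 0 as reported. Plain TPM and TPM rescaled to the non-mitochondrial total each gave 4, 1, 1, 4 and 1, and median-centred libraries 5, 2, 2, 5 and 1. Without a filter on low values, where 38890 genes were tested, the counts were 0, 0, 3, 3 and 0. Scaling to the summed mitochondrial mRNA gave 2, 1, 0, 1 and 1. The replicate block within each genotype gave 5, 3, 13, 12 and 1, on plain TPM 5, 1, 1, 4 and 2, and with scaling to mitochondrial mRNA 4, 1, 1, 5 and 2. The block across all libraries (3, 1, 10, 6 and 0), the pseudocount of 0.1 and the added copies (4, 1, 10, 6 and 0 for each) stayed within 1.5 times. Leaving out 1 library gave ranges of 0 to 5, 0 to 2, 3 to 13, 1 to 13 and 0 to 1. WT 144 h against 72 h, the genotype comparisons and the responses gave 0 under every setting run.

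Of 67 single calls over mRNAs, tRNAs and rRNAs, 33 held on plain TPM, 25 with scaling to mitochondrial mRNA, 21 without the filter and all 65 that could be fitted with the block within each genotype, and leaving out 1 library lost 138 of 938. At WT 144 h the sign of 4 called genes, lower as reported, changed with the scaling, and the values below are log2 fold changes against 0 h. mt-Nd4l was 0.0908 on plain TPM, 0.0873 on the non-mitochondrial total and 0.136 on mitochondrial mRNA. mt-Nd4 was 0.224, 0.220 and 0.269 on these scales and 0.0303 in median-centred libraries, mt-Nd5 was 0.185, 0.181 and 0.230, and mt-Co2 was 0.0009 on mitochondrial mRNA. mt-Atp6 (0.14) and mt-Co3 (0.24), not called as reported, were also above 0 on plain TPM. Adding the block to plain TPM or mitochondrial scaling leaves a fold change as it is. The cause was not tested, and with 2 libraries per group and no counts the counting error at low TPM cannot be given.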
